A study of Mus musculus with 21 samples.

Results

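The 10 genes described here act as brakes on the kinase mTOR or on the translation that it drives: the sestrins Sesn1, Sesn2 and Sesn3, the pair Ddit4 and Ddit4l, the translation repressors Eif4ebp1 and Eif4ebp2, the complex partners Tsc1 and Tsc2, and Deptor. They were listed by gene symbol for this known role and found through the Ensembl mouse identifier of each row. The list has no threshold on measured values, although it was drawn up with earlier results of these data known. All 10 were found among the 46071 genes of the count table, and all 10 were among the 12658 genes that passed the filter on low counts. Their levels were compared across muscle of mice with and without the FoxO transcription factors, with and without streptozotocin (STZ), a toxin that destroys insulin-producing beta cells.

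RNA sequencing was done on 21 libraries from powdered quadriceps and gastrocnemius muscle mixed together. All mice carried floxed Foxo1, Foxo3 and Foxo4 and were littermates on a mixed background of C57Blk6, C57Blk6J and 129 strains. The floxed controls without STZ (FoxOTlox, 4 libraries) and the floxed controls given STZ (5 libraries) kept the 3 genes. In the triple knockouts without STZ (FoxOTKO, 6 libraries) and the triple knockouts given STZ (6 libraries) a Cre driven by the ACTA1 promoter, which is active in skeletal muscle fibres, removed them. Other cells of the muscle therefore still have FoxO. STZ was injected into the peritoneum after an overnight fast at 150 mg/kg, females had a further 75 mg/kg on day 3, and mice were used when random blood glucose stayed above 300 mg/dL. Citrate buffer was the control injection of the series, although the labels list no drug for the libraries without STZ. The labels give neither the age nor the sex of the mice, and nothing in them ties each library to its own animal. The p-values below therefore reflect only how much these libraries vary.

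mTOR complex 1 is a kinase that promotes protein synthesis and restrains autophagy when growth factors and amino acids are plentiful. The Tsc1-Tsc2 complex switches off Rheb, the small GTPase that activates the kinase at the lysosome, Ddit4 (REDD1) and Ddit4l (REDD2) act through that complex, and the sestrins hold the kinase back when leucine is scarce by binding GATOR2. Deptor binds mTOR itself. The 4E-BPs lie downstream: unphosphorylated, they hold the cap-binding factor eIF4E and so block cap-dependent initiation, and active mTOR complex 1 phosphorylates them and frees it. In muscle, insulin signalling keeps FoxO proteins out of the nucleus through Akt, and low insulin lets them act.

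Total counts ran from 2951290 to 7687823 per library, with a median of 5665819, and the members had from 1 to 3995 counts in a library. Levels are given as CPM, the usual depth-scaled count unit, with library sizes adjusted by TMM. Foxo4 was at least 124 CPM in every floxed library and at most 12.7 CPM in every knockout library, and Foxo1 at least 36.4 against at most 26.7 CPM. Foxo3 did not separate the genotypes, with a lowest floxed value of 64.1 CPM and a highest knockout value of 233 CPM, and counts over a whole gene say nothing on the loss of one part of it. The 8 skeletal muscle fibre markers summed to 50600 CPM in library 17, a floxed control with STZ and the lowest of all, and to 71700 to 201000 CPM in the others. The 14 macrophage markers, none of them at 0, summed to 187 to 257 CPM in floxed controls, 216 to 335 CPM in floxed controls with STZ, 328 to 1940 CPM in knockouts and 308 to 2450 CPM in knockouts with STZ. Knockout libraries 4, 15, 16 and 20 had the highest sums, at 1860, 2450, 1110 and 1940 CPM. Fits below without these libraries therefore leave out only knockouts, those highest in this measured level. The 10 markers of the fibre's response to denervation summed to 60.1 to 80.5 CPM in floxed controls and 90.1 to 200 CPM in those with STZ, the highest being library 17. They summed to 92.6 to 2010 CPM in knockouts, the highest being library 20 and the next library 10 at 221 CPM. In knockouts with STZ they summed to 89.5 to 712 CPM, and 6 of the 10 were higher in knockouts averaged over STZ. The 8 fibroblast markers summed to 2470 to 7780 CPM in floxed controls and 601 to 1360 CPM in those with STZ, where 2 of 8 were lower, to 2190 to 8800 CPM in knockouts and to 772 to 5200 CPM in knockouts with STZ. These counts of denervation and fibroblast markers have no share of all genes beside them. The part of the denervation and fibroblast markers in the members' differences was not tested. The summed macrophage level nearly separates the genotypes, so a fit with it as a covariate cannot divide its part from the knockout's. In whole muscle, a change in the number of cells of a type and a change in RNA per cell cannot be told apart. Knockout libraries 6 (without STZ) and 8 (with STZ) stood apart in the balance of long against short genes: the median log2 deviation of genes with at least 7998 exon bases minus that of genes with at most 3350 was -0.97 and -0.89 there, and -0.24 to 0.51 in the other libraries.

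A table of RefSeq promoters (GRCm38.p6) covers 250 bases before to 50 bases after a start and held 9 windows for 8 of the members. The stretches printed here were chosen because they hold the letters that FoxO proteins and the hypoxia factors are known to bind. Capitals mark TGTTTAC, the FoxO core, in the first line, TGTTT, its shorter form shared by forkhead proteins, in the second, and ACGTG, the hypoxia response core, in the third. The first lies at chr10:41810585-41810614, plus strand, in an annotated untranslated exon of Sesn1, and its core begins 23 bases after the RefSeq start. The second, chr10:41887189-41887438, plus strand, is the window before the second annotated Sesn1 start and overlaps no annotated exon. The third lies at chr10:59951941-59951968, minus strand, before Ddit4, with its core beginning at -187.
Sesn1 first start: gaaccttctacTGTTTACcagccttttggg
Sesn1 second start: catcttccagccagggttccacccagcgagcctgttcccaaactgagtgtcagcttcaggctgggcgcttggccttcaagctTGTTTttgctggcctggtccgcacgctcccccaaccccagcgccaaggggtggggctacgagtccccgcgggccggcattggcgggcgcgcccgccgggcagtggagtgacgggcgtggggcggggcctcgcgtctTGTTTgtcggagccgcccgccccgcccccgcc
Ddit4: gaacgttgcgaACGTGcgcccggtgcct

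Both strands of each window were searched. TGTTTAC was present in 1 of the 9 member windows and in 3.65% of the 32851 windows in the table. TGTTT, which TGTTTAC contains, was present in 3 of the 9, those of both Sesn1 starts and of Sesn2, against 50.5% of all windows. In the second Sesn1 window it begins at -168 and at -32. TGTTTNC, which also contains TGTTT, was present in 1 of 9 and in 20.5% of all. ACGTG was present in 2 of 9, Ddit4 and Eif4ebp2, against 19.6% of all. No member window held TGTTTTG (6.28% of all), TGATGNAAN, the ATF4 composite (3.95%), or the paired half-sites of the glucocorticoid receptor (0.475%). These matches describe the letters only.

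To compare levels between genes, CPM was divided by the length of the gene's merged exons in kilobases. In floxed controls without STZ, Ddit4l was at 125 ± 20.8 CPM per kb (SD, n = 4) and Ddit4 at 93.1 ± 66.8, so the spread of Ddit4 covers the gap between them. A middle set followed, with Eif4ebp2 at 19.7, Deptor at 15, Sesn1 at 14.1, Tsc2 at 13.6, Tsc1 at 10.9 and Eif4ebp1 at 7.4 CPM per kb. Sesn2 at 1.07 and Sesn3 at 0.514 CPM per kb were lowest. Sesn1 made up 89.7% ± 2.03 (SD, n = 4) of the summed sestrin level per length in floxed controls and 92.2% ± 3.85 (n = 5) with STZ, 83.3% ± 6.19 (n = 6) in knockouts and 82.6% ± 3.98 (n = 6) in knockouts with STZ. In floxed controls given STZ, Sesn1 was at 33.5 ± 14.7, Eif4ebp1 at 28.3 ± 22.9 and Eif4ebp2 at 24.2 ± 2.75 CPM per kb (SD, n = 5). The mean of Eif4ebp1 rests on library 17: Eif4ebp1 was below Eif4ebp2 in the other 4 libraries, and without library 17 their means were 18.2 and 24.8, and that of Sesn1 27.2 CPM per kb.

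**Figure D1:**
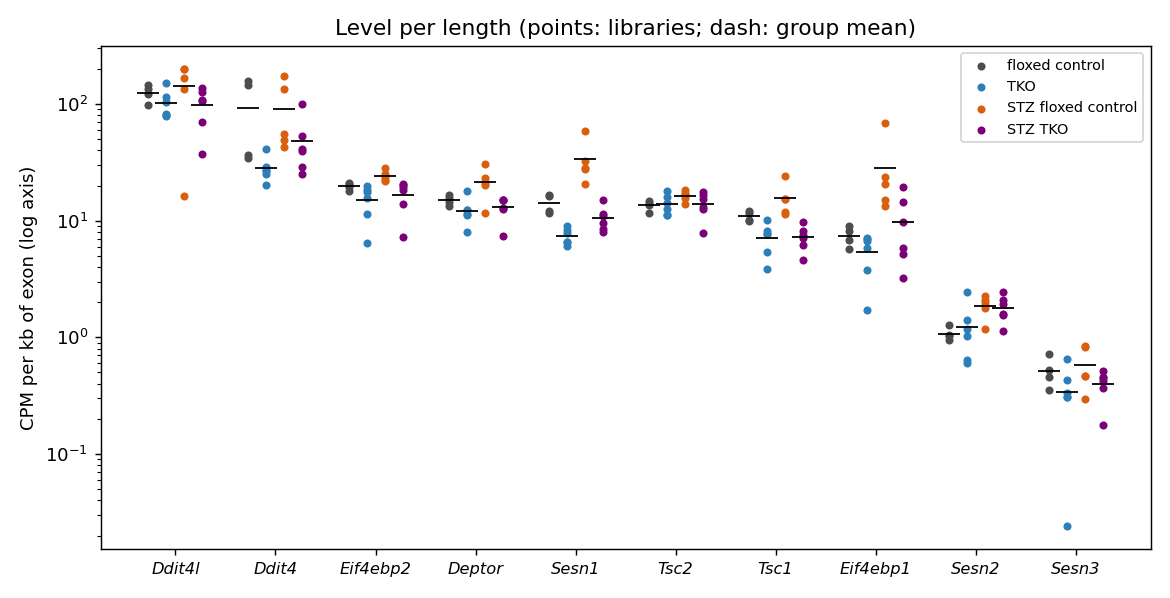
CPM per kb of exon on a log axis for the 10 members, with 1 point per library, coloured by group, and a dash at each group mean. Ddit4l and Ddit4 lie highest, and Sesn2 and Sesn3 lowest. The group mean of every member but Ddit4 is highest in the floxed controls with STZ.

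Sesn1 and Eif4ebp1 passed the threshold for both factors. Sesn1 rose with STZ in floxed controls and was lower in knockouts than in floxed controls under STZ, and Eif4ebp1 rose with STZ averaged over genotype and was lower in knockouts under STZ. Tsc1 was also lower in knockouts under STZ, and Ddit4 and Deptor fell when the knockout difference was averaged over both STZ states. Sesn2, Sesn3, Ddit4l, Eif4ebp2 and Tsc2 passed the threshold in no comparison of this fit, and Sesn2, Ddit4l and Eif4ebp2 did so in some alternatives given with each gene. Calls were made at an adjusted p under 0.05 in edgeR's quasi-likelihood test, with Benjamini-Hochberg adjustment over the 12658 genes. For STZ in floxed controls 1 member of 10 was higher, beside 0.498% of all genes tested, and the groups of 3 members did not overlap upward, beside 3.62% of all genes. For the knockout under STZ 3 of 10 were lower, beside 2.42% of all genes, and 3 did not overlap downward, beside 2.24%. For the knockout without STZ none was called, beside 0.514% of all genes in either direction, 1 did not overlap downward, beside 2.61%, and 3 had an unadjusted p under 0.05, beside 11.5%. There DESeq2 called 2 members, beside 2.33% of all genes, and limma-voom 1, beside 2.02%. For STZ in knockouts none was called by edgeR, DESeq2 or limma-voom, beside 0.142%, 0.87% and 0.419% of all genes, none was free of overlap, beside 0.624%, and 1 had an unadjusted p under 0.05, beside 11.3%.

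Averaged over the STZ states, 4 of 10 members were lower in knockouts, beside 4.23% of all genes, and averaged over genotype 2 of 10 were higher with STZ, beside 2.16%. The median log2 fold change of the members was 0.40 for STZ in floxed controls, where that of all genes was 0.02. It was -0.44 for the knockout without STZ (all genes 0) and -0.64 under STZ (all genes 0.03), and 0.18 for STZ in knockouts (all genes 0.01). All 10 fitted differences were negative for the knockout under STZ and 8 of 10 without STZ, and 9 of 10 were positive for STZ in floxed controls. The comparisons share libraries: the floxed controls with STZ enter both the STZ difference in floxed controls and the knockout difference under STZ, so these are set side by side and not counted as separate evidence.

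**Figure D2:**
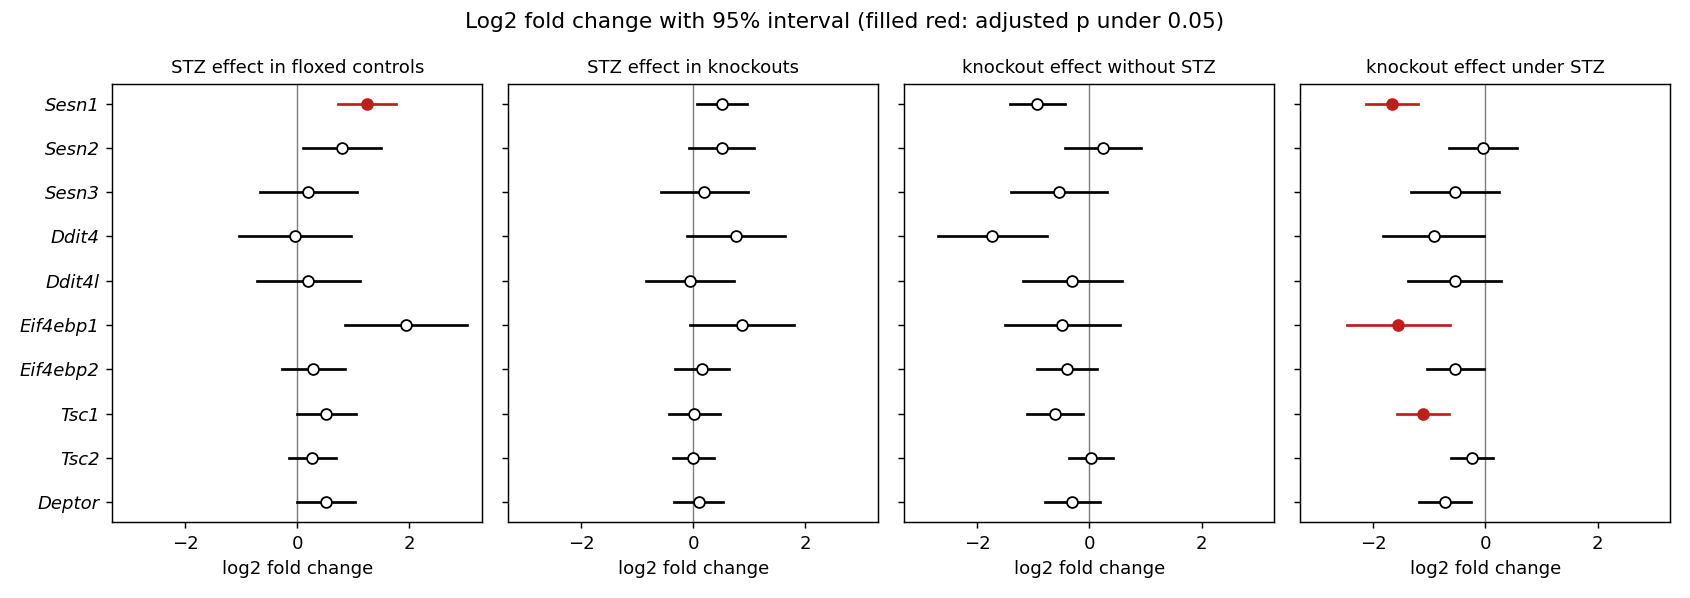
Log2 fold change of each member with its 95% interval in the 4 comparisons, edgeR's quasi-likelihood fit, filled red where the adjusted p is under 0.05. Sesn1 is filled for STZ in floxed controls, and Sesn1, Eif4ebp1 and Tsc1 for the knockout under STZ.

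Sesn1 encodes the most abundant of the sestrins in these libraries, a stress-induced protein that restrains mTOR complex 1 through GATOR2. It lies on chromosome 10 at chr10:41809935-41908424 (GRCm38, plus strand). In floxed controls without STZ it was at 48.6, 64.3, 66.0 and 46.3 CPM in libraries 1, 5, 9 and 19. With STZ the floxed controls had 129, 112, 82.2, 234 and 111 CPM in libraries 3, 7, 14, 17 and 21. Each of these lay above every floxed library without STZ, and library 17 was the highest. Knockouts without STZ ranged from 24.0 to 35.8 CPM with a median of 28.9, below every floxed library. Knockouts with STZ ranged from 31.6 to 60.4 CPM with a median of 40.8, so all were below the floxed libraries with STZ but overlapped those without it.

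With STZ, Sesn1 rose in floxed controls by a log2 fold change of 1.25 ± 0.25 (SE), a 2.37-fold difference, with an adjusted p of 0.0154 in edgeR's test. The call was lost without floxed library 1 (1.18, adjusted p 0.0825) and without floxed library 19 (1.16, adjusted p 0.0701). In knockouts the STZ difference was 0.51 ± 0.22, adjusted p 0.381. The knockout difference was -1.66 ± 0.22 under STZ (3.17-fold lower, adjusted p 7.1e-05) and -0.93 ± 0.24 without STZ (adjusted p 0.0757), where the groups did not overlap. The second value passed with DESeq2 (adjusted p 0.0258), with limma-voom (0.00414), in a fit of these groups alone (0.0291) and without library 17 (0.0205). Averaged over STZ, Sesn1 fell in knockouts by 1.30 on the log2 scale (SE 0.16, adjusted p 1.75e-05), a call that all 11 other settings and all 21 fits without 1 library kept. With the summed macrophage marker level as a covariate it was -1.30 (adjusted p 0.00869). Averaged over genotype it rose with STZ by 0.88 ± 0.17 (adjusted p 0.00391).

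**Figure D3:**
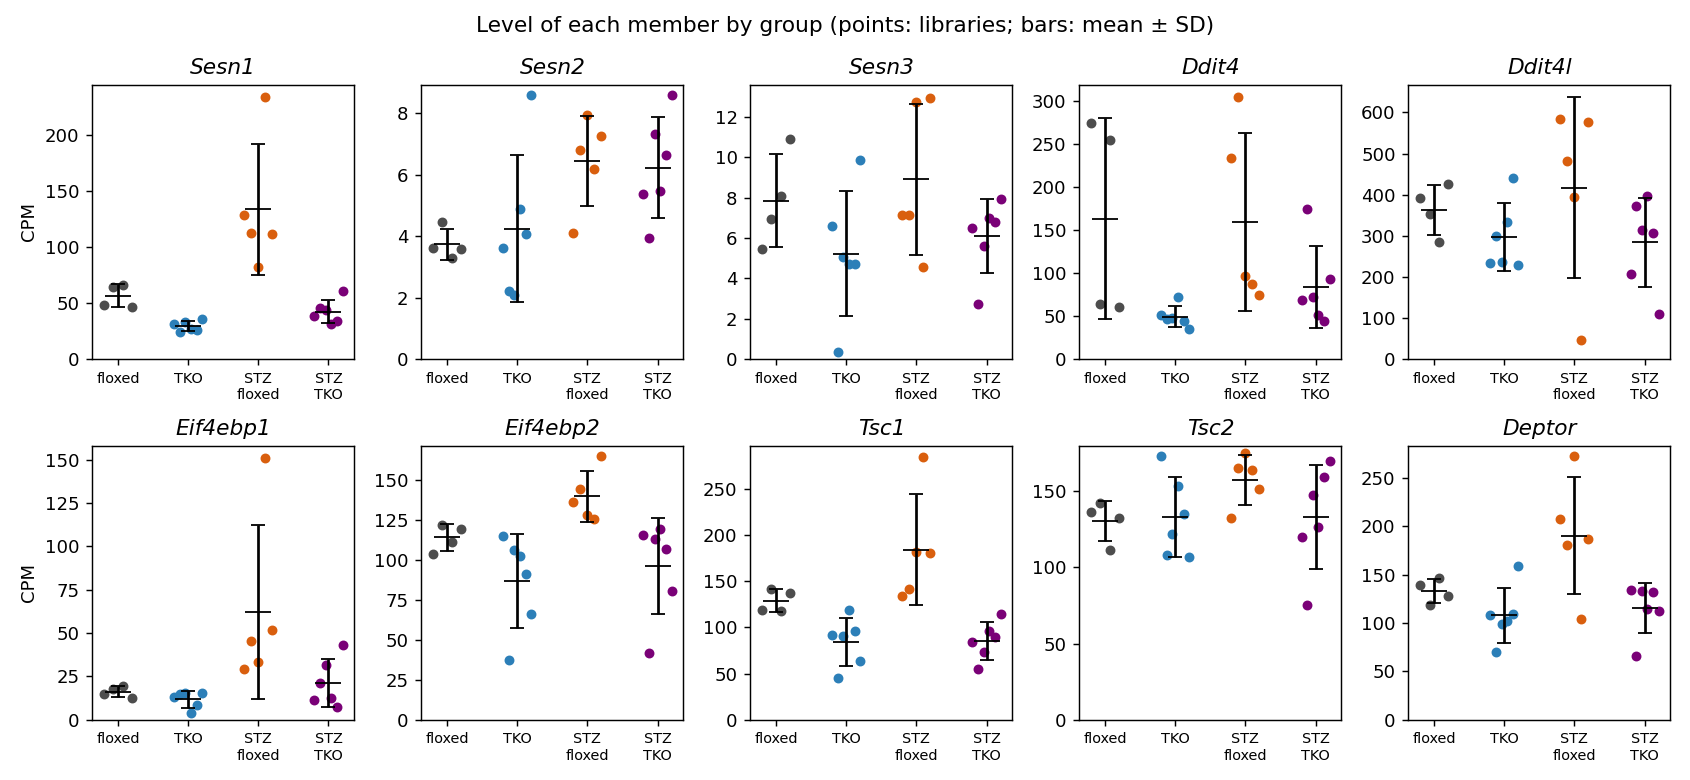
CPM of each member in the 4 groups, with 1 point per library and bars for the mean and SD, each panel on its own linear axis from 0. Sesn1 in floxed controls with STZ (82.2 to 234 CPM) lies above every other group, and Ddit4 splits into high and low libraries in both floxed groups.

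Sesn2, a sestrin induced by oxidative and amino acid stress and known as a leucine sensor (chr4:132492032-132510501, minus strand), had 6 to 59 counts per library without STZ, and was at 3.62, 4.45, 3.27 and 3.58 CPM in floxed libraries 1, 5, 9 and 19. With STZ the floxed controls had 4.09, 6.80, 7.93, 6.18 and 7.25 CPM in libraries 3, 7, 14, 17 and 21, of which library 3 overlapped the floxed controls without STZ. Knockouts ranged from 2.09 to 8.58 CPM (median 3.83) and knockouts with STZ from 3.94 to 8.58 CPM (median 6.06), so the genotypes overlapped. The STZ difference was 0.79 ± 0.33 in floxed controls (adjusted p 0.268) and 0.51 ± 0.28 in knockouts (adjusted p 0.498), and 0.65 ± 0.22 averaged over genotype (adjusted p 0.0842), all by edgeR. The averaged value passed with DESeq2 (0.66, adjusted p 0.0492), with limma-voom (0.78, adjusted p 0.0068), without knockout libraries 4, 15, 16 and 20 (0.87, adjusted p 0.0226), without library 20 (0.82, adjusted p 0.0159) and without library 3 (0.71, adjusted p 0.0492), and the floxed value with limma-voom (0.82, adjusted p 0.0462). Its knockout differences were 0.25 ± 0.33 without and -0.04 ± 0.29 with STZ, the latter with a 95% interval from -0.64 to 0.56.

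Sesn3, a sestrin described as a FoxO target in other cells (chr9:14275067-14333101, plus strand), was at 5.43 to 10.9 CPM in floxed controls and 4.54 to 13.0 CPM in those given STZ. Knockouts ranged from 0.369 to 9.89 CPM (median 4.88) and knockouts with STZ from 2.73 to 7.93 CPM (median 6.65), and every pair of groups overlapped. The 0.369 CPM was 1 count in library 6, and library 8 held the 2.73 CPM. The knockout difference was -0.54 ± 0.41 without STZ (adjusted p 0.714) and -0.54 ± 0.38 under STZ (adjusted p 0.483). Without libraries 6 and 8 these were -0.31 and -0.41. The 95% interval under STZ ran from -1.32 to 0.24, and the libraries with STZ held 9 to 98 counts each.

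Ddit4 is a stress-, glucocorticoid- and hypoxia-induced inhibitor that acts through the Tsc complex (chr10:59949669-59951834, minus strand). Floxed libraries 1 and 9 had 274 and 255 CPM, but floxed libraries 5 and 19 had 63.5 and 60.6 CPM. With STZ, floxed libraries 3 and 7 had 233 and 305 CPM, and libraries 14, 17 and 21 had 96.5, 86.9 and 74.8 CPM. Both floxed groups were thus split into high and low libraries. Knockouts without STZ lay between 35.5 and 71.9 CPM (median 47.2), and knockouts with STZ between 43.8 and 175 CPM (median 70.8), the highest being library 8. The knockout groups overlapped the low floxed libraries and never reached the high ones.

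The knockout difference of Ddit4 was -1.73 ± 0.46 without STZ (adjusted p 0.0898) and -0.92 ± 0.44 under STZ (adjusted p 0.258). Averaged over STZ it fell by 1.33 on the log2 scale (SE 0.32, adjusted p 0.0101 in edgeR's test). That call was made in all 21 fits without 1 library, and was lost with the macrophage marker level as a covariate (-1.01, adjusted p 0.484) and without knockout libraries 4, 15, 16 and 20 (-1.13, adjusted p 0.111). The STZ difference was -0.04 ± 0.48 in floxed controls and 0.76 ± 0.42 in knockouts (adjusted p 0.98 and 0.496). Of 11 tested genes induced by glucocorticoids, Klf15, a transcription factor of amino acid catabolism, fell in knockouts by 1.22 without STZ and by 0.99 under STZ (SE 0.26 and 0.24, adjusted p 0.0289 and 0.0173), and Cebpd, a C/EBP factor, fell by 1.34 under STZ (SE 0.37, adjusted p 0.0381). Of 11 tested hypoxia genes, Bnip3, a mitophagy receptor, fell by 1.24 under STZ (SE 0.33, adjusted p 0.0319). Klf15 and Bnip3 also belong to the FoxO-associated list. Under STZ 6 of the 11 glucocorticoid genes had positive and 5 negative fitted differences, with a median of 0.12, and 4 of the 11 hypoxia genes had positive ones, with a median of -0.18. Without STZ the medians were -0.25 and -0.33. There 4 of the 11 glucocorticoid genes and 0 of the 11 hypoxia genes had positive differences, and no hypoxia gene passed the threshold. Averaged over genotype, Cebpd rose with STZ by 1.13 (SE 0.28, adjusted p 0.0239), as did Bnip3 by 0.99 (SE 0.25, adjusted p 0.0252) and Egln3, an oxygen-sensing hydroxylase, by 1.58 (SE 0.41, adjusted p 0.0315).

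Ddit4l, the muscle-enriched relative of Ddit4 (chr3:137621612-137628333, plus strand), was at 391, 352, 285 and 426 CPM in floxed libraries 1, 5, 9 and 19. With STZ the floxed controls had 583, 482, 395, 47.3 and 577 CPM in libraries 3, 7, 14, 17 and 21. Library 17, the highest of the 21 for Sesn1, was thus the lowest for Ddit4l. Knockouts ranged from 230 to 442 CPM (median 269) and knockouts with STZ from 109 to 396 CPM (median 311), the lowest being library 18. No difference passed: -0.30 ± 0.42 and -0.55 ± 0.40 for the knockout without and with STZ, and 0.20 ± 0.44 and -0.06 ± 0.38 for STZ in floxed controls and knockouts (adjusted p 0.499 or above by edgeR). Averaged over STZ the knockout difference was -0.42 ± 0.29 (adjusted p 0.425), and without libraries 17 and 18 it was -0.48 (adjusted p 0.0486). Across the 21 libraries, after removal of group means, Ddit4l and Sesn1 had a Pearson r of -0.78. Libraries 17 and 18, lowest for Ddit4l, were the highest of their groups for Sesn1.

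Tsc1 encodes hamartin, which stabilises Tsc2 (chr2:28641228-28691167, plus strand). It was at 119, 142, 118 and 137 CPM in floxed libraries 1, 5, 9 and 19, and at 134, 141, 182, 285 and 180 CPM in floxed libraries 3, 7, 14, 17 and 21 with STZ. Knockouts ranged from 45.3 to 119 CPM (median 91.2) without STZ and from 54.6 to 115 CPM (median 86.6) with STZ. Under STZ the genotypes did not overlap, and without STZ only knockout library 13, at 119.3 CPM, reached the floxed range. Tsc1 fell in knockouts under STZ by 1.11 on the log2 scale (SE 0.23, 2.16-fold lower, adjusted p 0.00551 in edgeR's test). Without STZ the difference was -0.61 ± 0.24 (adjusted p 0.285), and averaged over STZ it was -0.86 ± 0.17 (adjusted p 0.00174). With the macrophage marker level as a covariate these calls were lost, at -0.90 (adjusted p 0.122) under STZ and -0.64 (adjusted p 0.273) averaged. That level nearly separates the genotypes, so this fit cannot assign the difference to either. The STZ difference was 0.52 ± 0.26 in floxed controls (adjusted p 0.36) and 0.01 ± 0.22 in knockouts.

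Tsc2 encodes tuberin, the subunit that inactivates Rheb (chr17:24595816-24632630, minus strand). It shares 693 exon bases, 7.2% of its exons, with Pkd1 on the opposite strand, and whether counting used the strand is not given. Floxed libraries had 112 to 142 CPM without STZ and 132 to 175 CPM with it, and the knockouts had 107 to 173 CPM without STZ (median 129) and 75.5 to 170 CPM with it (median 137). All groups overlapped. Its knockout differences were 0.03 ± 0.19 without STZ (95% interval -0.37 to 0.43) and -0.24 ± 0.18 with STZ (-0.62 to 0.13), adjusted p 0.988 and 0.511.

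Within the pair, Tsc1 made up 44.6% ± 2.18 (SD, n = 4) of the summed level per length in floxed controls and 47.9% ± 6.62 (n = 5) with STZ. In knockouts it made up 33.5% ± 5.14 (n = 6) without and 34.5% ± 3.63 (n = 6) with STZ. The lowest floxed share was 41.4% without STZ and 41% with it, and the highest knockout share was 38.7% and 38.1%, so no knockout library reached a floxed one. This share is a ratio within a library and describes the pair only, with no test applied and no other gene pairs beside it. Under STZ Tsc1 by itself already did not overlap between the genotypes.

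Deptor, which binds and inhibits mTOR in both of its complexes (chr15:55112317-55259271, plus strand, sharing 3.41% of its exon bases with Gm9920 on the opposite strand), was at 139, 118, 146 and 128 CPM in floxed libraries 1, 5, 9 and 19. With STZ the floxed controls had 207, 180, 273, 104 and 187 CPM in libraries 3, 7, 14, 17 and 21, so that only library 17 lay below the floxed controls without STZ. Knockouts ranged from 70.4 to 158 CPM (median 105) without STZ and from 65.8 to 134 CPM (median 123) with it. The highest knockout without STZ was library 20, above every floxed control without STZ, and the lowest values of the 2 knockout groups were libraries 6 and 8. Deptor fell in knockouts averaged over STZ by 0.51 on the log2 scale (SE 0.16, adjusted p 0.0458 in edgeR's test). This call was at the margin, since it was kept in 4 of 21 fits without 1 library (log2 fold changes -0.58 to -0.43) and was lost without libraries 6 and 8 (-0.40, adjusted p 0.0755). Under STZ the knockout difference was -0.72 ± 0.22 (adjusted p 0.062), and without library 17 it was -0.88 (adjusted p 0.0137). The STZ difference in floxed controls was 0.52 ± 0.25 (adjusted p 0.345).

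Eif4ebp1 encodes 4E-BP1, the repressor of eIF4E that mTOR complex 1 phosphorylates (chr8:27260329-27276674, plus strand). Floxed libraries 1, 5, 9 and 19 had 15.0, 17.8, 19.6 and 12.5 CPM. With STZ, floxed libraries 3, 7, 14, 17 and 21 had 29.5, 45.6, 33.2, 151 and 52.0 CPM, all above the floxed controls without STZ, and library 17 was far the highest. Knockouts ranged from 3.79 to 15.7 CPM (median 13.8), overlapping the floxed controls, and knockouts with STZ from 7.14 to 43.0 CPM (median 17.0), where libraries 11 and 18 overlapped the floxed controls with STZ.

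Averaged over genotype, Eif4ebp1 rose with STZ by 1.40 ± 0.34 (SE), a 2.64-fold difference with an adjusted p of 0.023 in edgeR's test. The call was lost without libraries 17 and 18 together (0.92, adjusted p 0.0711) and without floxed library 1 (1.38, adjusted p 0.0617). In floxed controls alone the difference was 1.94 ± 0.52 (adjusted p 0.0673) and in knockouts 0.86 ± 0.44 (adjusted p 0.463). Without library 17 the floxed difference was 1.32 (adjusted p 0.23). Under STZ, Eif4ebp1 fell in knockouts by 1.55 on the log2 scale (SE 0.45, adjusted p 0.046). That call was kept in 6 of 21 fits without 1 library and in 6 of 12 other settings, and without library 17 the value was -0.92 (adjusted p 0.214). Without STZ the knockout difference was -0.48 ± 0.49 (adjusted p 0.822).

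Eif4ebp2 encodes 4E-BP2, a second repressor of eIF4E (chr10:61428491-61452661, minus strand). It was at 104 to 122 CPM in floxed controls and 125 to 165 CPM in those given STZ, with no overlap, yet the fitted difference was 0.29 ± 0.27 (adjusted p 0.663). Knockouts ranged from 37.2 to 115 CPM (median 96.9) and knockouts with STZ from 41.9 to 119 CPM (median 110), all below the floxed controls with STZ. The knockout difference was -0.40 ± 0.26 without STZ and -0.54 ± 0.24 with it (adjusted p 0.639 and 0.237), and -0.47 ± 0.18 averaged (adjusted p 0.107). With the run of library codes as a block the averaged difference was -0.60 (adjusted p 0.0306). Libraries 6 and 8 held its lowest values, and without them the averaged difference was -0.31 (adjusted p 0.0761). Eif4ebp1 made up 27.2% ± 4.16 (SD, n = 4) of the summed 4E-BP level per length in floxed controls and 48.7% ± 15.7 (n = 5) with STZ, 28% ± 14.9 (n = 6) in knockouts and 36% ± 19.3 (n = 6) in knockouts with STZ. Without library 17 the share in floxed controls with STZ was 41.9% ± 4.36 (n = 4).

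Whether the STZ difference itself depended on genotype was tested as an interaction. No member passed with edgeR, DESeq2 or limma-voom, which called 0.0079%, 0.0278% and 0.0158% of all genes, and 1 member had an unadjusted p under 0.05, beside 3.89% of all genes. That member was Sesn1, whose STZ difference was smaller in knockouts by -0.73 ± 0.33 (95% interval -1.41 to -0.05, adjusted p 1). The interval for Eif4ebp1, -1.07 ± 0.67, ran from -2.46 to 0.32. The STZ responses of the genotypes are therefore not shown to differ for any member.

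Libraries 6 and 8, which stood apart in length balance, held the lowest values of their groups for Sesn3 (15269 exon bases), Tsc1 (11833), Deptor (8874) and Eif4ebp2 (5784). Tsc2 (9620 exon bases) was lowest of its group in library 8 at 75.5 CPM and next to lowest in library 6. For the shorter Sesn1 (3982), library 6 was lowest and library 8, at 45.5 CPM, was above the median of its group. With both libraries left out, an alternative chosen after the data were seen, Tsc1 under STZ was -1.01 (adjusted p 0.00357) and Sesn1 under STZ -1.69 (adjusted p 0.000249). Libraries 17 and 18 had the highest length balance, 0.51 and 0.46.

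**Figure D4:**
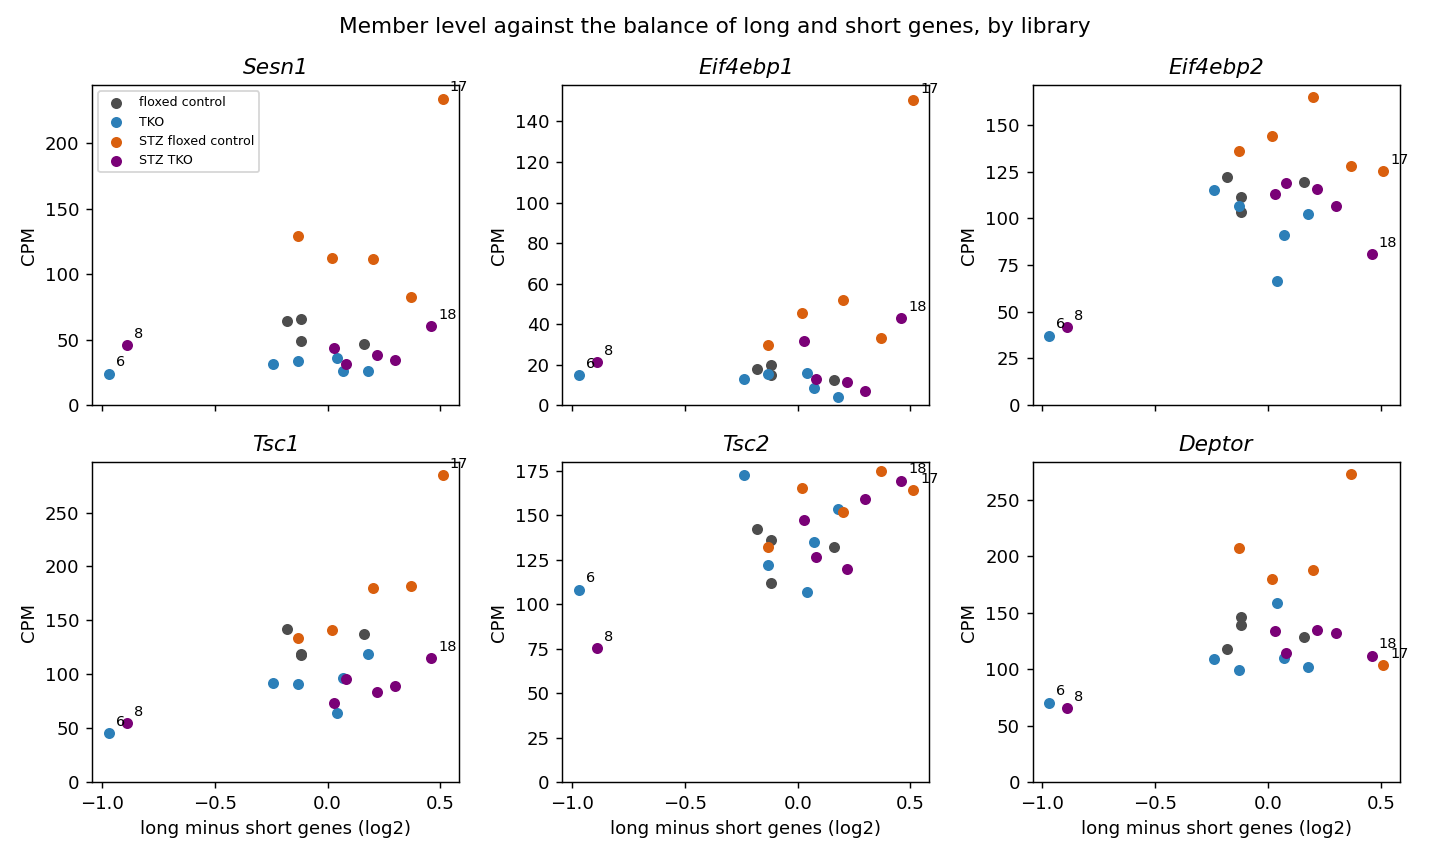
CPM of 6 members against the median log2 deviation of long minus short genes in each library, with 1 point per library coloured by group. Libraries 6 and 8 lie far left with low Eif4ebp2, Tsc1 and Deptor, and library 17 lies far right with the highest Sesn1, Eif4ebp1 and Tsc1.

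The library codes in the titles fall into 6 runs of consecutive numbers, which the labels do not call batches. Within these runs Sesn1 was lower in knockouts in 4 of 4 runs without STZ (log2 differences -1.41 to -0.37) and in 4 of 4 under STZ (-1.95 to -1.26). It was higher with STZ in 3 of 3 runs of floxed controls (0.80 to 1.40) and in 5 of 5 of knockouts (0.15 to 1.20). The same held for Sesn2, in 3 of 3 runs of floxed controls (0.16 to 0.95) and in 5 of 5 of knockouts (0.42 to 1.45). Sesn3, Ddit4l, Eif4ebp2 and Deptor were also higher with STZ in 3 of 3 floxed runs. Tsc1 was lower in knockouts in 4 of 4 runs in both STZ states (-1.64 to -0.37 and -1.36 to -0.67). Eif4ebp1 was lower in knockouts under STZ in 4 of 4 runs (-2.16 to -1.09) and higher with STZ in 3 of 3 floxed runs (0.95 to 2.02). Ddit4 was lower in knockouts without STZ in 4 of 4 runs (-2.43 to -0.44) but in 3 of 4 under STZ (-1.75 to 0.10). For Deptor and Eif4ebp2 the counts were 3 of 4 without STZ, and under STZ 3 of 4 and 4 of 4. Where the groups compared did not overlap, the sign in every run follows from that and is no further evidence. This holds for Sesn1 in both knockout differences and with STZ in floxed controls. It also holds for Tsc1 and Eif4ebp2 in the knockout difference under STZ, and for Eif4ebp1 and Eif4ebp2 with STZ in floxed controls. No share of all genes stands beside these tallies.

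**Figure D5:**
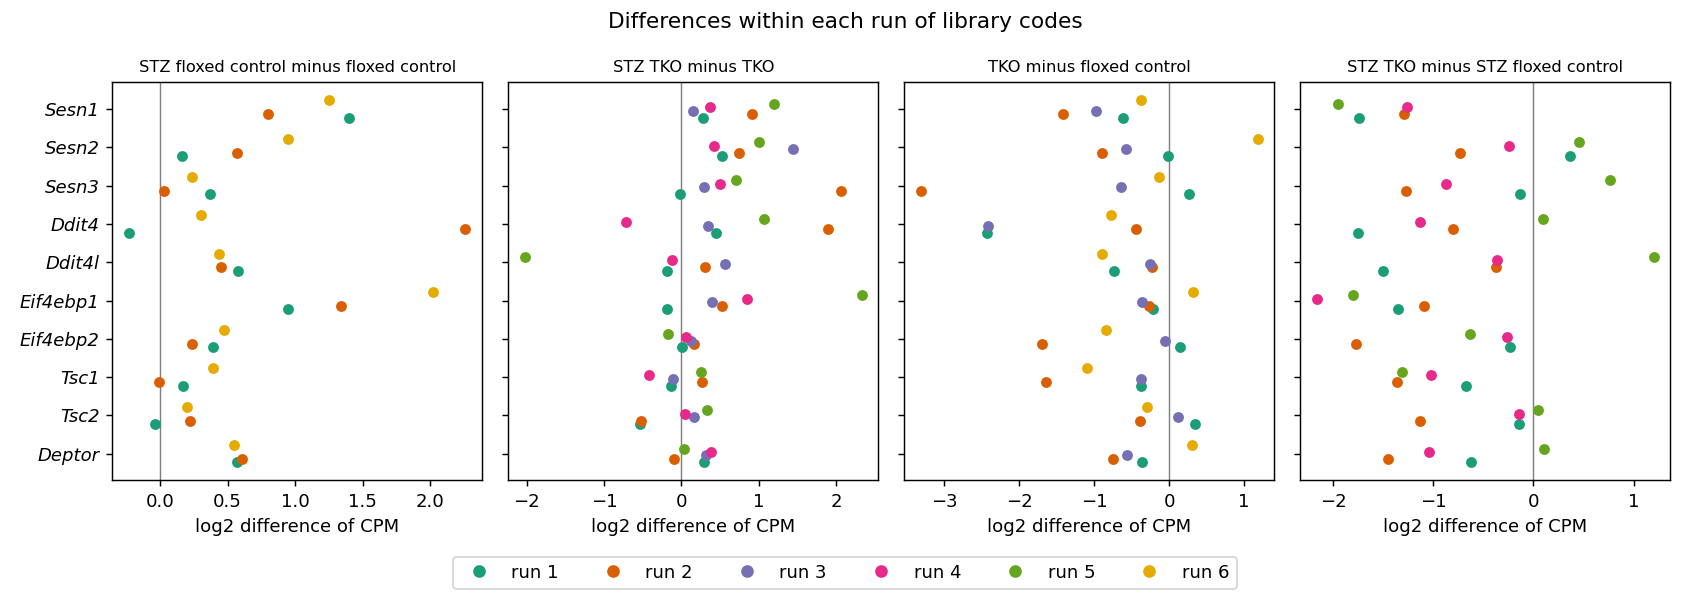
Log2 difference of CPM between groups inside each run of library codes, for the 10 members, with 1 point per run that held both groups. Sesn1 and Tsc1 lie left of 0 in every run for both knockout differences, and Sesn1 and Sesn2 lie right of 0 in every run for both STZ differences.

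Of 62 other genes of the mTOR pathway, 60 were tested. The list holds subunits of mTOR complex 1, amino acid sensors, upstream kinases and translation targets. It also holds Rictor and Prr5, subunits of mTOR complex 2. For the knockout under STZ 4 of the 60 were lower, beside 2.42% of all genes, and none was higher. They were Castor2, a paralog of an arginine sensor that binds GATOR2 (-1.39 ± 0.18, adjusted p 5.44e-05), Akt2, the insulin-responsive kinase that inactivates Tsc2 (-1.05 ± 0.15, 0.000123), Eif4g3, a scaffold of translation initiation (-0.88 ± 0.16, 0.00205), and Prkaa2, a catalytic subunit of AMPK, which activates Tsc2 (-1.16 ± 0.33, 0.0449). Without STZ only Castor2 was lower in knockouts (-1.13 ± 0.19, adjusted p 0.00344). With STZ in floxed controls only Prkag2, a regulatory AMPK subunit, was lower (-0.81 ± 0.20, adjusted p 0.0477).

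Averaged over STZ, 7 of the 60 were lower in knockouts, beside 4.23% of all genes, and 1 was higher. The 6 with the smallest adjusted p were Castor2 (-1.26), Akt2 (-0.69), Eif4g3 (-0.60), Prkag2, which was higher (0.58), Prkaa2 (-0.93) and the autophagy kinase Ulk1 (-0.68). Averaged over genotype, 3 were lower with STZ: Prkag2 (-0.79), the muscle AMPK subunit Prkag3 (-1.38) and Prr5, a subunit of mTOR complex 2 (-0.77). The median of the 60 was -0.05 for the knockout under STZ and 0 for STZ in floxed controls, where those of all genes were 0.03 and 0.02. Castor2, and Prkaa2 through Tsc2, also act as brakes, whereas Akt2 and Eif4g3 act in the growth-promoting direction.

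Of 16 tested ATF4 targets, the stress-response list to which Sesn2, Ddit4 and Eif4ebp1 are commonly assigned, Chac1, a glutathione-degrading enzyme, was lower in knockouts without STZ (-2.77 ± 0.42, adjusted p 0.00143) and under STZ (-3.10 ± 0.39, adjusted p 5.44e-05). In each of these comparisons the other 15 did not pass the threshold. Without STZ 10 of the 16 had positive and 6 negative fitted differences, with a median of 0.1 (all genes 0). Under STZ 5 were positive and 11 negative, with a median of -0.13 (all genes 0.03). Psat1, a serine synthesis enzyme, was higher averaged over STZ (1.69 ± 0.42, adjusted p 0.0136). Atf5, a transcription factor of this response, was lower with STZ averaged over genotype (-0.94 ± 0.24, adjusted p 0.0258). Of 16 genes commonly associated with FoxO in muscle, 7 were lower and none higher in knockouts under STZ, beside 2.42% of all genes lower. Without STZ 2 were lower and none higher, beside 0.514% of all genes in either direction. With STZ in floxed controls 2 were higher, Cited2 and Cat, beside 0.498% of all genes higher. The 1 that was lower was Foxo6, itself a FoxO gene, which the knockout did not target. The medians of that list were -0.98, -0.74 and 0.51 for these comparisons.

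Genes with the pattern most like a member were ranked by Pearson correlation of log2 CPM over the 21 libraries, among 9839 genes, as a description of points that share library, depth and length balance. The second value for each gene is r after removal of group means. For Sesn1 they were Kctd20 (r 0.924, 0.645), Cbx7 (0.913, 0.432) and Zfyve1 (0.911, 0.477). For Tsc1 they were Pcyt1a (0.951, 0.867), Gsk3b (0.933, 0.878) and Prkaa2 (0.933, 0.896). For Eif4ebp1 they were Psmd8 (0.933, 0.913), Bsdc1 (0.898, 0.798) and Ctxn3 (0.880, 0.739). Deptor was closest to Rnf144a (0.839, 0.709), Pcgf3 (0.837, 0.693) and St6galnac2 (0.830, 0.698), and Ddit4 to Abcg2 (0.730, 0.603), Mr1 (0.729, 0.524) and Arl4d (0.728, 0.631). Among the members, Sesn1 and Eif4ebp1 had an r of 0.86, and 0.75 after removal of group means. Libraries 17 and 18 were the highest of their groups for both of these genes.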

How the data were processed

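The deposited table holds whole read counts per Ensembl gene for 21 libraries, left unnormalized by the authors. STAR, featureCounts and GRCm38.p4 are named per the submitters' processing notes, but for versions, annotation and strand setting the entry is: not given in the sources used here. Of 46071 identifiers, 45143 matched a GENCODE M21 symbol. Groups came from the labels' genotype and drug.

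Counts were fitted in R 4.3.3 with edgeR 4.0.16 (quasi-likelihood test, TMM scaling, filterByExpr, 4 groups in 1 model, factors 0.862 to 1.35, biological coefficient of variation 0.325), giving 12658 tested genes and Benjamini-Hochberg adjusted p-values called under 0.05. SEs are the log2 fold change divided by the root of F, and intervals are 95%. DESeq2 1.42.0, limma 3.58.1, other filters and scalings, and left-out libraries were alternatives. The fitting script was tested on simulated data.

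All members, listed pathway genes past the threshold (at most 6, or 4 for the ATF4, glucocorticoid and hypoxia lists, per comparison) and the 3 genes most like each called member are named. Members and lists were chosen with earlier results of these data known.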

Additional observations from a re-analysis of the deposited data

Results flagged for a closer look

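In a check for 1 library far from the rest of its group (Dixon's gap ratio at the 95% level), 2 of 40 member and group combinations passed, where chance gives about 1 in 20. Eif4ebp1 in library 17, a floxed control with STZ, was at 151 CPM, with the next library of that group at 52.0 CPM. Deptor in library 8, a knockout with STZ, was at 65.8 CPM, with the next at 112 CPM.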

How the results depend on the processing

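Of 2280 recomputed fold changes of the members, 2191 kept direction and side of the threshold, 52 lost a call, 37 gained one and none of the called values reversed. Values not called on either side changed sign 33 times in settings other than single left-out libraries, over 12 member comparisons, and ended between -0.26 and 0.15. They did so 55 times with 1 library left out.

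Called members: for the knockout averaged over STZ (4 in the reported fit) 1 with the macrophage covariate, 5 with DESeq2, 5 with limma-voom, 6 with the run block and 6 without libraries 17 and 18. For the knockout under STZ (reported 3) it was 1 with the covariate and 4 each with DESeq2, limma-voom and the run block. For the knockout without STZ (reported 0) it was 2 with DESeq2 and 1 each with limma-voom, with only the 2 groups, with the run of library codes as a block and without libraries 17 and 18. For STZ in floxed controls (reported 1) it was 2 with DESeq2, 4 with limma-voom and 2 with the run block. For STZ averaged (reported 2) it was 4 with limma-voom, 1 with no filter and 1 without libraries 17 and 18. With 1 library left out the counts ran from 0 to 2 for STZ in floxed controls (0 without library 1 and without 19), 0 to 1 for the knockout without STZ, 1 to 3 for STZ averaged, 2 to 4 for the knockout under STZ, 3 to 5 for the knockout averaged, and 0 for STZ in knockouts and the interaction. The cause was not tested. Calls over all genes follow for some of these settings. Where none is given, the member count has no share of all genes beside it and is not read as a result about the members.

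Over all genes, calls for the knockout under STZ were 619, against 985 with DESeq2, 1068 with the run block, 312 with only its 2 groups and 239 with the covariate. For the knockout without STZ they were 65, against 346 (DESeq2), 256 (limma-voom), 125 (without 17 and 18), 40 (without 4, 15, 16 and 20) and 18 (covariate). For STZ in floxed controls 171 became 421 (DESeq2), 770 (limma-voom), 292 (covariate), 266 (without 6 and 8) and 265 (2 groups). For STZ in knockouts 18 became 112 (DESeq2), 53 (limma-voom), 98 (run block) and 4 (2 groups), with 29 (covariate), 29 (no filter) and 28 (without 17 and 18). For the knockout averaged 1240 became 130 (covariate) and 529 (without 4, 15, 16 and 20). For STZ averaged 575 became 1091 (DESeq2), 1439 (limma-voom), 1006 (run block), 936 (covariate) and 312 (without 17 and 18). The interaction called 1 gene, against 4 (DESeq2), 2 (limma-voom), 2 (no filter) and 0 (run block). With 1 library left out the ranges over all genes were 380 to 780 for the knockout under STZ, 32 to 105 without STZ, 31 to 333 for STZ in floxed controls, 7 to 61 in knockouts, 965 to 1401 for the knockout averaged, 216 to 1027 for STZ averaged and 0 to 2 for the interaction.

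With the longest transcript in place of merged exons, Sesn3 was at 0.86, 0.572, 0.976 and 0.668 CPM per kb in floxed controls, knockouts, floxed controls with STZ and knockouts with STZ, Tsc1 at 16.8, 11, 23.9 and 11.1, and Tsc2 at 20.9, 21.3, 25.2 and 21.2, so the order of the middle members depends on the length used. No paired analysis was possible because replicate numbers are unique across groups, and the block used here was the run of library codes, which the labels do not call a batch. Depth limits Sesn2 and Sesn3 most.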
